A study of Mus musculus with 4 samples.

Results

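Ezh1, Ezh2, Eed, Suz12, Jarid2, Bmi1, Ring1, Rnf2, Kdm6a and Kdm6b encode subunits of the Polycomb repressive complexes and the demethylases that remove their mark on lysine 27 of histone H3 (H3K27). They were chosen by name, from the known makeup of these complexes and by no rule on measured values, but with earlier results of these data known. All 10 are rows of the deposited table of 20065 genes. Gene identifiers were matched to symbols with GENCODE vM21. Total RNA depleted of ribosomal RNA was sequenced from cultured satellite cells (MuSC, the stem cells of skeletal muscle) of limb and trunk muscles of adult C57BL/6 mice. Controls were labelled wild type and carried Pax7CreERT2 and 1 floxed Prmt5 allele (Pax7CreERT2/Prmt5+/loxP), whereas Prmt5sKO cells carried Pax7CreERT2 and floxed alleles only (Pax7CreERT2/Prmt5loxP/loxP). Both groups were treated with tamoxifen (TAM in the labels, 4-hydroxytamoxifen on cultured cells in the study's methods), n = 2 libraries per group. The comparison asks how RNA levels differ when Prmt5, an arginine methyltransferase of histones and other proteins, is deleted by a Cre recombinase driven from Pax7, so that only cells that have expressed Pax7 recombine and both groups carry the Cre.

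PRC2 writes methylation on H3K27 through Ezh1 or Ezh2, which need Eed and Suz12 to be active. PRC1 contains the ubiquitin ligases Ring1 and Rnf2, which ubiquitinate histone H2A and are paired with a Pcgf protein such as Bmi1. In proliferating myoblasts PRC2 with Ezh2 keeps late muscle genes silent, and Ezh2 is known to give way to Ezh1 as myoblasts differentiate, while Kdm6a and Kdm6b take the methyl groups off.

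The promoters of Ezh2, Suz12 and Ezh1 are shown because these PRC2 genes differed most between the groups and because Ezh2 is a known target of E2F factors, which drive the genes of S phase. The sequences are from RefSeq (GRCm38.p6), run 5′ to 3′ from 250 bases before the annotated start to 30 bases from the start on, and have capitals where E2F letters occur.
Ezh2, chr6:47595001-47595280, minus strand: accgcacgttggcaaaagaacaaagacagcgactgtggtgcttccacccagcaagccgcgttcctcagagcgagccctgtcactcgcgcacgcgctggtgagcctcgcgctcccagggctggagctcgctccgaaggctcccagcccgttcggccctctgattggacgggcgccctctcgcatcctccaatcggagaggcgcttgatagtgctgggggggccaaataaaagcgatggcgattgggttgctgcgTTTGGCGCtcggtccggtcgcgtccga
Suz12, chr11:79992856-79993135, plus strand: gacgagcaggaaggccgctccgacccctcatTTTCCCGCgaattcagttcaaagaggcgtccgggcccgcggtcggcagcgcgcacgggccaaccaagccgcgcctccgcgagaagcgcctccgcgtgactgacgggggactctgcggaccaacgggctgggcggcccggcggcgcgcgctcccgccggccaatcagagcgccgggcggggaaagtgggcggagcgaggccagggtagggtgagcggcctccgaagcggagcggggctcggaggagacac
Ezh1, chr11:101226434-101226713, minus strand: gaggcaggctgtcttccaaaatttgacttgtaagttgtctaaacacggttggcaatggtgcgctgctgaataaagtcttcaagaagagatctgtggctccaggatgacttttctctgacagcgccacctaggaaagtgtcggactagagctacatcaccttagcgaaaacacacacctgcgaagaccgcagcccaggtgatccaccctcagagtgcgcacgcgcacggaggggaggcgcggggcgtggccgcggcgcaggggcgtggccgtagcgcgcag
The letters searched, on both strands, were TTTCCCGC, TTTCGCGC, TTTGCCGC and TTTGGCGC, which do not contain one another. Within the full windows of 250 bases before and 50 from the start, Ezh2 held TTTGGCGC at position 3 after the start and Suz12 held TTTCCCGC at position -219, whereas Ezh1 held none. The Ezh2 start used here is that of RefSeq and lies inside the GENCODE gene, whose 5′ end is at 47595341. RefSeq gave 10 promoters for 9 of the genes (2 for Jarid2, none for Kdm6b). E2F letters were in 2 of these 10 promoters (20%), against 2.26% of all 32851 promoters, 3.72% of those of the genes tested and 40.6% of the 32 promoters of S phase genes. The 10 promoters held 17 to 41 CG steps (median 23.5), against a median of 7 over all promoters and 20 over the promoters of genes tested. The lowest, that of Eed at 17, was below the median of the genes tested. A match of letters is a description and not a site of binding.

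Whole reads per library were recovered from the deposited group means, so each group has a deeper and a shallower library, which the columns do not number. The reads in the table number 14436914 (deeper) and 13240754 (shallower) for control, then 20047430 (deeper) and 16190414 (shallower) for Prmt5sKO MuSC. Values below are in that order and are TMM-normalized counts, scaled to 15782505 reads. Prmt5 itself had 2223, 2843, 238 and 198 normalized counts, so both libraries labelled Prmt5sKO lacked most of the transcript. The share of reads from Lars2 and ribosomal-type transcripts was 7.42%, 15.2%, 2.37% and 3.63%. The shallower Prmt5sKO library stood apart in 23 myocyte differentiation genes, whose summed counts were 64932, 106637, 62995 and 503382. Ttn made up much of the control sums, and without it the sums were 26635, 18564, 35187 and 336094. The shallower Prmt5sKO library was above both controls in 23 of the 23 genes and the deeper one in 16. Xist was at 8479, 22.8, 7.97 and 5532, and Uty and other Y-linked genes were the other way round, so each group holds 1 library with high Xist and 1 with Y-linked RNA, and the labels give no sex. The myogenic identity of the cells was clear in Pax7 (3012, 2937, 3584 and 2514) and Myod1 (15108, 12662, 11888 and 15210). Not all 8 satellite cell and myoblast markers were as even. Myf5 was lower and Vcam1 higher in both Prmt5sKO libraries (25.0% of the 8 without overlap, beside 48.9% of all genes tested). Des, Itga7 and Cdh15 were highest in the shallower Prmt5sKO library (31471, 14544 and 4538). Of 5 endothelial markers 4 were listed, with summed levels of 122, 160, 88.4 and 55.1, and the immune markers that were listed summed to 102, 109, 57.3 and 70.8. Both sums were low but lower in both Prmt5sKO libraries than in either control, and their part in the results below was not tested. Not every marker followed its sum. The endothelial marker Tek was at 13.3, 26.6, 42.0 and 28.5. Of the immune markers only Cd68 and Itgam were listed. Cd68 made up most of their sum, and Itgam was highest in the shallower Prmt5sKO library (21.6). Ptprc, Adgre1 and Cd3e were not in the table. Markers of fibro-adipogenic progenitors summed to 13079, 5866, 13744 and 16063, nearly all from Col3a1, and Lum was at 0 in 3 of the 4 libraries. The shallower control library, lowest in Col3a1, was highest in Lum (26.6), Dcn (7.74, 113, 13.0 and 15.7) and Dpt (0, 6.34, 0.725 and 0.984). Pdgfra (37.6, 43.1, 42.8 and 16.7) and Ly6a (15.5, 29.2, 4.35 and 29.5) did not stand out there. Within each group 1 library had high Xist and the other Y-linked RNA, so the 2 were not from the same mouse. The sources do not say how many mice each library holds, so p-values measure only the spread between these libraries.

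Of 16153 genes tested with limma-voom, 0 (0%) reached an adjusted p of at most 0.05 with at least a 2-fold change, and none of the 10 genes did. With limma-trend and with robust eBayes the count was also 0. Prmt5, the deleted gene, was itself not called, at a log2 fold change of -3.52 (limma-voom adjusted p = 0.193 by Benjamini-Hochberg). That was the smallest adjusted p of the fit, so a gene that was not called is not shown to be unchanged. The unadjusted p was under 0.05 for 2100 genes (13.0%), with 974 (6.03%) higher and 1126 (6.97%) lower in Prmt5sKO MuSC. Of the 10 genes, Ezh1 was among the higher and Ezh2 among the lower ones. Without the deeper Prmt5sKO library 480 genes passed the full criteria, without the shallower one 54 did, and with libraries of like Xist level paired 334 (2.07%) did, and in none of these fits was any of the 10 genes called.

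**Figure D1:**
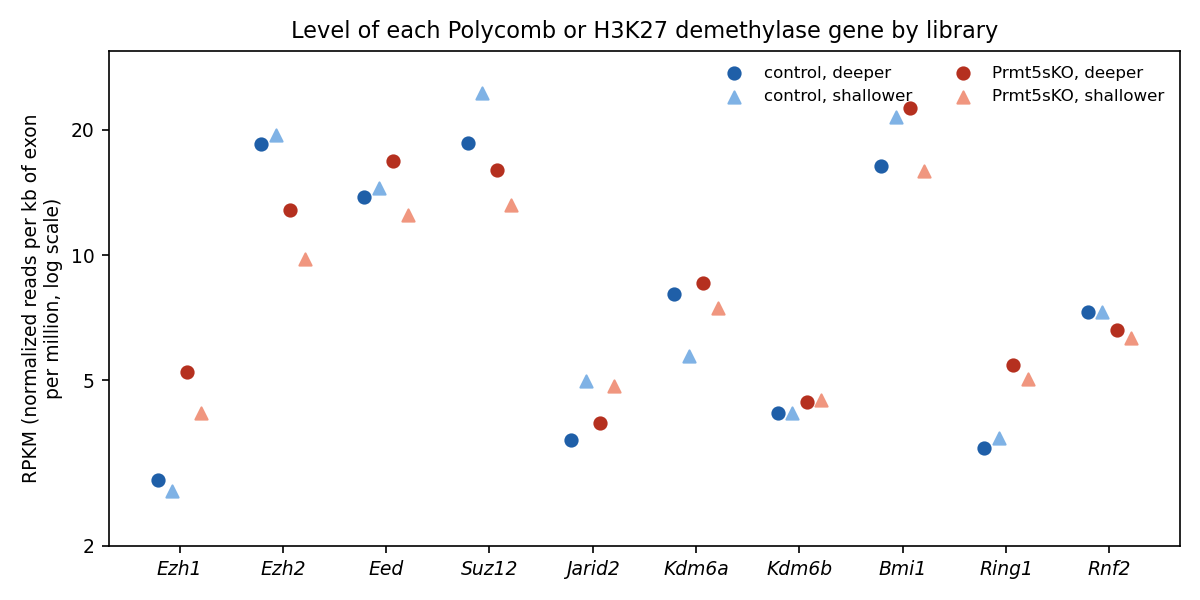
RPKM (normalized reads per kb of exon at a common depth, log axis) of the 10 genes in each of the 4 libraries, with circles for the deeper and triangles for the shallower library of each group (n = 2 per group). Both Prmt5sKO points lie above the controls for Ezh1 and Ring1 and below them for Ezh2 and Suz12, while Eed, Jarid2, Kdm6a and Bmi1 overlap between the groups.

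The catalytic subunits of PRC2 lay on opposite sides. Ezh2 (ENSMUSG00000029687, chromosome 6, 47530139 to 47595341 in GRCm38, minus strand), the main H3K27 methyltransferase of dividing cells, had 1949 and 2049 normalized counts in control and 1346 and 1033 in Prmt5sKO libraries. Both Prmt5sKO libraries were below both controls. The means were 1999 ± 70.6 and 1189 ± 221 (SD, n = 2 each), a log2 fold change of -0.76 (SE 0.22, 95% interval -1.30 to -0.22) that limma-voom with Benjamini-Hochberg adjustment did not call (adjusted p = 0.294). In bulk RNA, fewer cells of a type and less RNA per cell cannot be told apart. Ezh1 (ENSMUSG00000006920, chromosome 11, 101191115 to 101226463, minus strand), the paralog found also in resting and differentiated cells, had 337 and 318 counts in control and 614 and 488 in Prmt5sKO libraries. Here both Prmt5sKO libraries were above both controls. Its means were 328 ± 13.3 and 551 ± 89.0 (SD, n = 2 each), and the log2 fold change was 0.75 (SE 0.26, interval 0.11 to 1.38, limma-voom adjusted p = 0.334 by Benjamini-Hochberg).

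Per length, the ratio of Ezh2 to Ezh1 within a library was 6.44 and 7.17 in control and 2.44 and 2.36 in Prmt5sKO MuSC. This ratio does not depend on how libraries are scaled to each other, and the replicates lay close together. On the log2 scale it averaged 2.76 ± 0.11 in control and 1.26 ± 0.04 in Prmt5sKO MuSC (SD, n = 2 each), a difference of -1.5. The exact permutation test (two-sided) of 2 against 2 libraries gave p = 0.333, the smallest this design allows. Ezh1 made up 13.4% and 12.2% of the summed Ezh1 and Ezh2 level in control and 29.0% and 29.8% in Prmt5sKO libraries, and Ezh2 remained the more abundant in all 4. The summed level itself was 21.4 and 22.2 RPKM (normalized reads per kb of exon at a common depth) in control against 18 and 14 in Prmt5sKO libraries.

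**Figure D2:**
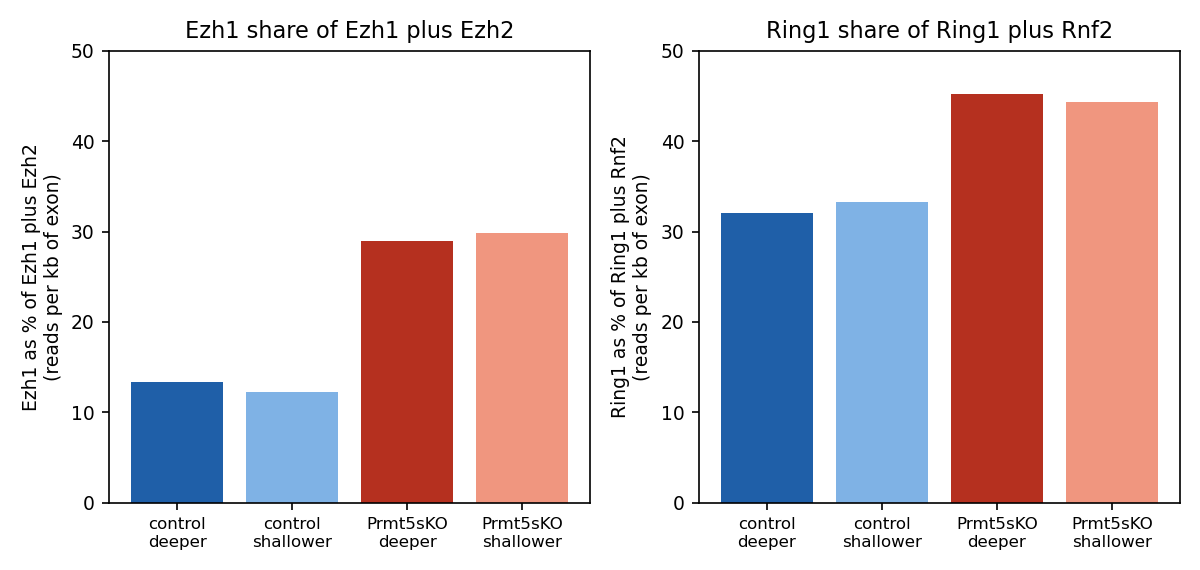
Share of Ezh1 in the summed Ezh1 and Ezh2 level and of Ring1 in the summed Ring1 and Rnf2 level (percent of reads per kb of exon), 1 bar per library. Ezh1 takes 12.2% to 13.4% in control and 29.0% to 29.8% in Prmt5sKO libraries, and Ring1 32.0% to 33.3% in control and 44.3% to 45.2% in Prmt5sKO libraries.

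The noncatalytic core subunits gave unlike values. Suz12 (chromosome 11, 79993106 to 80034123, plus strand), the scaffold that holds PRC2 together, had 1449 and 1913 counts in control and 1251 and 1030 in Prmt5sKO libraries. The groups did not overlap, but the gap between the nearest libraries was smaller than the difference between the 2 controls. The log2 fold change was -0.55 (SE 0.24, interval -1.13 to 0.03, limma-voom adjusted p = 0.395 by Benjamini-Hochberg). Eed (chromosome 7, 89954654 to 89980983, minus strand), which binds methylated H3K27 and stimulates the enzyme, had 831 and 875 counts in control and 1013 and 757 in Prmt5sKO libraries. Its groups overlapped, and the log2 fold change was 0.04 with an interval of -0.54 to 0.62. Jarid2 (chromosome 13, 44729474 to 44921643, plus strand), a cofactor that helps bring PRC2 to chromatin, had 553 and 764 counts in control and 604 and 742 in Prmt5sKO libraries. Those values overlapped too, at a log2 fold change of 0.04 (interval -0.60 to 0.68). The sign of the Eed and Jarid2 values depended on single libraries: Eed went to -0.17 without the deeper Prmt5sKO library, and Jarid2 to -0.21 without the deeper control library.

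Among the PRC1 genes the ratio of the ligase paralogs also differed between the groups. Ring1 (chromosome 17, 34020792 to 34024680, minus strand), the less abundant ligase, had 176 and 186 counts in control and 279 and 257 in Prmt5sKO libraries. Both Prmt5sKO libraries were above both controls, with means of 181 ± 7.58 and 268 ± 15.7 (SD, n = 2 each). The log2 fold change was 0.57 (SE 0.29, interval -0.14 to 1.28, limma-voom adjusted p = 0.446 by Benjamini-Hochberg). Rnf2 (chromosome 1, 151458004 to 151500955, minus strand), also called Ring1B and the main ligase in most cells, had 475 and 476 counts in control and 431 and 410 in Prmt5sKO libraries. The groups were separate, but the log2 fold change was small, at -0.18 (interval -0.74 to 0.38). Scaled by library size alone, which moves the median of all genes from 0.02 to 0.13, the Rnf2 groups overlapped. The ratio of Rnf2 to Ring1 per length was 2.13 and 2.0 in control and 1.21 and 1.26 in Prmt5sKO libraries, a log2 difference of -0.74 between 1.05 ± 0.06 and 0.30 ± 0.04 (SD, n = 2 each). The exact permutation p was again the smallest possible, 0.333.

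Bmi1 (chromosome 2, 18677018 to 18686629, plus strand), the Pcgf protein known for repressing the Cdkn2a locus and sustaining stem cells, had 1030 and 1346 counts in control and 1420 and 998 in Prmt5sKO libraries. The Prmt5sKO libraries lay on both sides of the controls, and the log2 fold change was 0.02 (interval -0.63 to 0.68). Without the deeper Prmt5sKO library it was -0.24. Its paralog Pcgf2 (Mel18), which can take its place next to Ring1 or Rnf2, had 578 and 685 counts in control and 333 and 365 in Prmt5sKO libraries. Both were below the controls, at a log2 fold change of -0.85 (SE 0.24, limma-voom adjusted p = 0.284 by Benjamini-Hochberg). Per length, Bmi1 over Pcgf2 was 1.58 and 1.74 in control and 3.78 and 2.43 in Prmt5sKO libraries (log2 difference 0.87, exact permutation p = 0.333).

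Neither demethylase had an interval that left out 0. Kdm6b (Jmjd3, chromosome 11, 69398508 to 69413675, minus strand), an inducible demethylase, had 459 and 458 counts in control and 485 and 492 in Prmt5sKO libraries. The groups did not overlap because the libraries within each were nearly equal, and the log2 fold change was 0.09 (interval -0.46 to 0.64). Kdm6a (Utx, chromosome X, 18162575 to 18279936, plus strand) had 1068 and 757 counts in control and 1136 and 985 in Prmt5sKO libraries. The groups overlapped, at a log2 fold change of 0.23 (interval -0.38 to 0.84) that was -0.00486 without the shallower control library. Unlike the other paralog ratios, Kdm6a over Kdm6b per length overlapped between the groups. It was 1.93 and 1.37 in control and 1.94 and 1.66 in Prmt5sKO libraries (log2 difference 0.14, exact permutation p = 0.667).

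Kdm6a is known to escape X inactivation, and Uty is its Y-linked paralog with little demethylase activity. Uty had 0 and 438 counts in control and 630 and 0 in Prmt5sKO libraries, so no read of Kdm6a was counted as Uty in the libraries with high Xist. In control, Kdm6a was higher in the library with high Xist (1068 against 757), whereas in Prmt5sKO MuSC it was lower there (985 against 1136). Among libraries with high Xist the log2 difference of Kdm6a between Prmt5sKO and control was -0.12, and among those with low Xist it was 0.58. Kdm6a and Uty summed to 8.07 and 8.56 RPKM in control and to 12.7 and 7.44 in Prmt5sKO libraries. Ezh2 was lower in Prmt5sKO within both pairs (-0.92 with high and -0.61 with low Xist) and Ezh1 was higher within both (0.53 and 0.95).

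**Figure D3:**
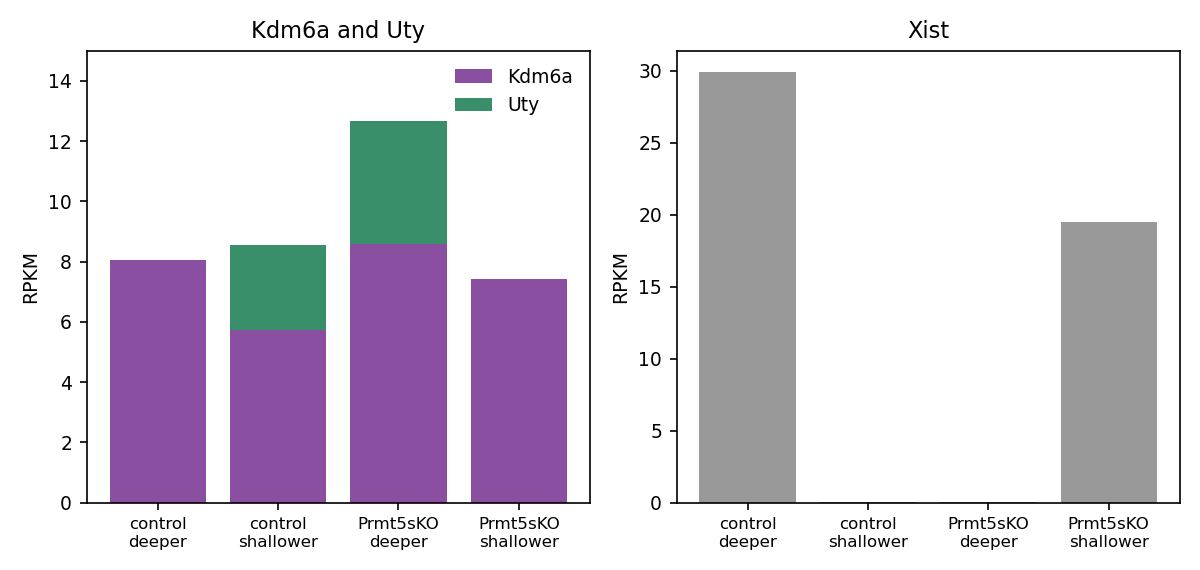
Left, stacked levels of Kdm6a and Uty, and right, the level of Xist, both in RPKM, 1 bar per library. Uty is present in the 2 libraries with low Xist, and Kdm6a lies between 5.72 and 8.58 without following Xist.

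Of the 10 genes, 6 (60.0%) had groups that did not overlap, against 48.9% of all genes tested. They were 3 higher (Ezh1, Ring1, Kdm6b) and 3 lower (Ezh2, Suz12, Rnf2), where the background was 25.2% higher and 23.6% lower. The count is close to the background share and is no result about the genes as a group. Their median log2 fold change was 0.04, beside 0.02 over all genes.

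**Figure D4:**
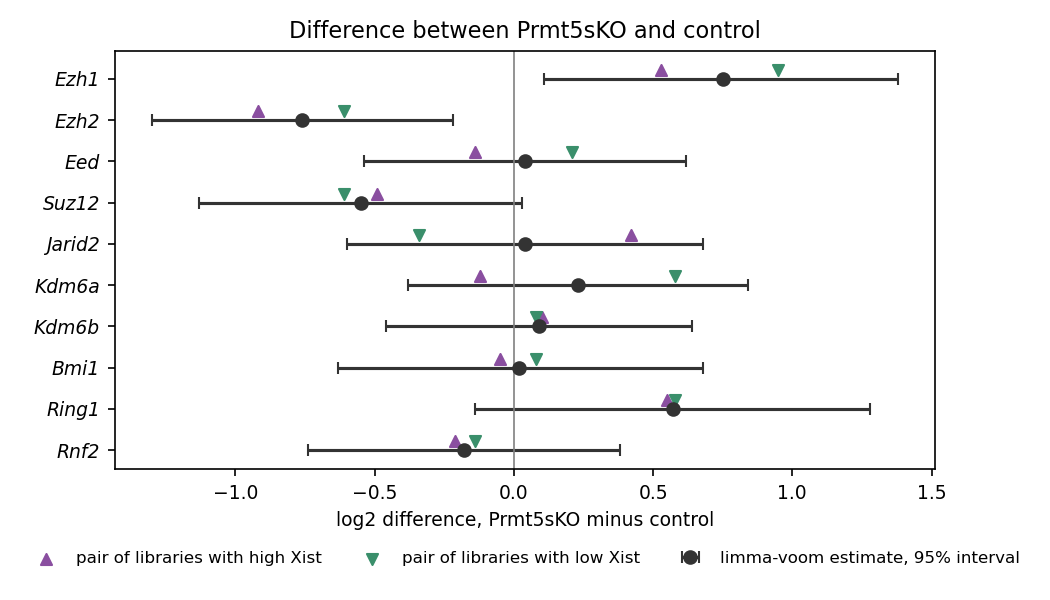
Log2 difference of each gene, Prmt5sKO minus control, as the limma-voom estimate with its 95% interval (circles and bars), and between the pairs of libraries with high and low Xist (triangles). The intervals of Ezh1 (0.11 to 1.38) and Ezh2 (-1.30 to -0.22) leave out 0, before adjustment over all genes, and the other 8 include it.

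Per length, the order of levels in control was led by Suz12 (21.5 RPKM), Ezh2 (19.0) and Bmi1 (18.9), whose libraries overlapped, followed by Eed (14.1), Rnf2 (7.3) and Kdm6a (6.9). Rnf2 and Kdm6a overlapped, as did Jarid2 (4.29) and Kdm6b (4.18), and the lowest were Ring1 (3.54) and Ezh1 (2.79). In Prmt5sKO MuSC the order began with Bmi1 (19.3), Eed (14.6) and Suz12 (14.6), which overlapped, and Ezh2 came after them at 11.3. Ring1 (5.23), Ezh1 (4.69), Kdm6b (4.45) and Jarid2 (4.39) came last, and neighbours among them overlapped. Reads without strand could include an antisense partner. Opposite-strand genes share 2.61% of the exon bases of Ezh2, 6.82% of Eed, 3.6% of Suz12, 4.11% of Kdm6b and 3.83% of Rnf2, and whether counting used strand is not given in the sources used here.

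The other Polycomb genes were 51 in 7 groups, most of them with negative values. At an unadjusted p under 0.05, 2 of the 51 were higher and 6 lower, beside 6.03% and 6.97% of all genes tested. Without overlap, 10 were higher and 21 lower, beside 25.2% and 23.6%, and the median log2 fold change was -0.19, with 38 negative values. The share without overlap was 60.8%, beside 48.9% of all genes. Of the CBX subunits of PRC1, which read methylated H3K27, Cbx2 had 418 and 495 counts in control and 172 and 196 in Prmt5sKO libraries. That was a log2 fold change of -1.31 (SE 0.28), the smallest p among the 51 genes (limma-voom adjusted p = 0.236 by Benjamini-Hochberg). Of the PRC2 accessory subunits, Epop had 126 and 199 counts in control against 60.9 and 45.3, and Lcor 650 and 901 against 399 and 467. All Prmt5sKO libraries of both genes lay below the controls, at log2 fold changes of -1.55 and -0.83. In variant PRC1, Kdm2b, which binds unmethylated CG-rich DNA, had 1025 and 1260 counts in control and 807 and 676 in Prmt5sKO libraries, and the deubiquitinase Usp7 had 3031 and 3772 against 2187 and 2148. The genes higher at an unadjusted p under 0.05 were Skp1a, with 2252 and 1829 counts in control and 3396 and 3090 in Prmt5sKO libraries, and Scml4, with 125 and 55.8 against 245 and 217.

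Kdm6a also sits in the complexes of the H3K4 methyltransferases Kmt2c and Kmt2d. All 9 of its partner genes there had negative values (median log2 fold change -0.52), beside 7845 of the 16153 genes tested. Of the 9, 6 were lower without overlap (23.6% of all genes tested were) and 4 lower at an unadjusted p under 0.05 (6.97% of all genes). This list and those of the other Polycomb genes were chosen with earlier results of these data known. Their counts are descriptions and no test. Kmt2d, a catalytic subunit, had 5695 and 8921 counts in control against 2582 and 3902, or a log2 fold change of -1.17 (SE 0.32, limma-voom adjusted p = 0.276 by Benjamini-Hochberg). Paxip1, which among the H3K4 methyltransferase complexes is found only in these, had 1046 and 1402 counts against 572 and 605. Ash2l and Wdr5, core subunits shared with other methyltransferases, had log2 fold changes of -0.58 and -0.84. Kdm6a itself was at 0.23, inside its overlapping groups.

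**Figure D5:**
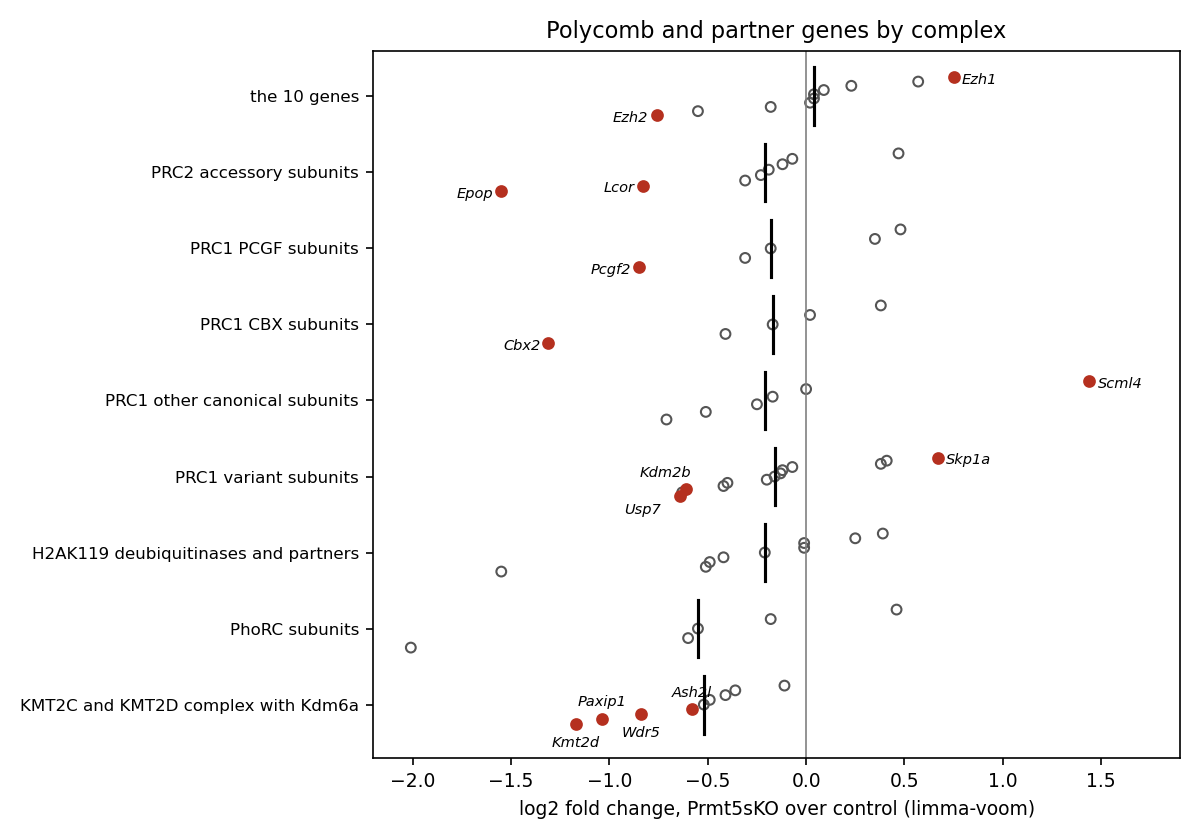
Log2 fold change (Prmt5sKO over control, limma-voom) of the 10 genes, of 51 other Polycomb genes in 7 groups and of 9 partners of Kdm6a, 1 point per gene, with vertical bars at each group's median. The PhoRC group includes L3mbtl1 and L3mbtl3, which are related genes and not PhoRC subunits. Filled points have an unadjusted p under 0.05 and none passed adjustment; the median is 0.04 for the 10 genes and -0.52 for the partners of Kdm6a.

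Of 6 textbook targets of Polycomb in myoblasts, 2 (33.3%) did not overlap between the groups, beside 48.9% of all genes tested, and Myog alone had an unadjusted p under 0.05. Cdkn2a, the senescence locus held by Bmi1 and Ezh2, had 629 and 310 counts in control and 436 and 740 in Prmt5sKO libraries, and Cdkn2b had 338 and 252 against 206 and 273. Both overlapped between the groups. Pax7 was at a log2 fold change of 0.01, also overlapping. Myog, the differentiation factor, had 1405 and 1163 counts in control and 3626 and 19084 in Prmt5sKO libraries, and Ckm, a muscle creatine kinase, had 38.7 and 14.0 against 113 and 1569. For both the shallower Prmt5sKO library, the one with 503382 summed myocyte counts, was far above the deeper one. Myh4, a fast myosin, had 18.8 and 0 counts in control and 17.4 and 230 in Prmt5sKO libraries, and its groups overlapped.

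The values of Ezh2, Suz12 and Ezh1 are set here beside lists of S phase and myocyte genes. Those lists were chosen with earlier results of these data known, so their counts are descriptions and no test. Of 41 S phase genes, 40 were lower without overlap, beside 23.6% of all genes tested, and 35 were lower at an unadjusted p under 0.05, beside 6.97%. The median log2 fold change was -1.15, and their summed counts were 77593, 91745, 38127 and 43238. Ezh2 at -0.76 and Suz12 at -0.55 were less negative than this median. The 23 myocyte genes all had positive values (median 2.75), with 16 higher without overlap, beside 25.2% of all genes tested, and 5 higher at an unadjusted p under 0.05, beside 6.03%. The shallower Prmt5sKO library had the lowest Ezh2 (1033) and the highest myocyte sum, and the deeper one had the highest Ezh1 (614). Without the shallower Prmt5sKO library the log2 fold changes were -0.57 for Ezh2 and 0.90 for Ezh1. The part of proliferation or differentiation in the Ezh2 and Ezh1 values was not tested.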

How the data were processed

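RNA-seq libraries of cultured MuSC, 2 control and 2 Prmt5sKO, were analysed. By the submitters' processing notes and the study's methods, the authors trimmed Ion Torrent reads (Reaper), aligned them to GRCm38 (STAR 2.4.0a), counted them per gene and compared groups with DESeq2 (1.62, as the notes write it). Signal values in the deposited file are means, made by the authors, of normalized counts over each group. The authors' log2 fold changes, standard errors, p-values and adjusted p-values are in the same file and were not used.

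Each group mean is a sum of 2 steps, from which whole reads per library were recovered for all 20065 genes (100% within a relative tolerance of 1e-13). The lowest overall mean is 0.90, so rarer genes are not covered. Of the IDs, 19782 are in GENCODE vM21. TMM factors (trims of 30% and 5%) came from own code. Genes whose mean normalized count reached 5 were tested with limma-voom (limma 3.58.1, R 4.3.3), Benjamini-Hochberg adjusted over all 16153 genes, called at an adjusted p of at most 0.05 and 2-fold. The code was tested on simulated data.

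The genes and lists were chosen with earlier results of these data known. Named genes were the 10 genes, Prmt5, Pcgf2, Uty, Xist, the textbook targets and listed Polycomb genes at an unadjusted p under 0.05. The 5 genes listed for PhoRC were named after their values were seen. Marker genes named singly were chosen after their values were seen, as were the myocyte sums without Ttn. These markers were Myod1, Myf5, Vcam1, Des, Itga7, Cdh15, Tek, Cd68, Itgam, Ttn, Col3a1, Lum, Dcn, Dpt, Pdgfra, Ly6a and the unlisted ones.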

Additional observations from a re-analysis of the deposited data

How the results depend on the processing

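The 10 genes were refitted under 14 alternatives (limma-trend, robust eBayes, library size only, upper quartile, the authors' size factors, a minimum mean of 20, no filter, no ribosomal-type transcripts, 2 pairings of libraries, and each library left out in turn). Of 140 log2 fold changes 133 kept their sign and side of the threshold and 7 reversed, all with a library left out. These 4 genes ranged over -0.24 to 0.27 (Bmi1), -0.17 to 0.25 (Eed), -0.21 to 0.28 (Jarid2) and -0.00486 to 0.47 (Kdm6a), and the cause was not tested. Ezh2 ranged over -0.95 to -0.57, Ezh1 over 0.57 to 0.90, Suz12 over -0.77 to -0.34 and Ring1 over 0.50 to 0.62 with a library left out. Across all alternatives the limma adjusted p was 0.086 to 0.968 for Ezh2 and 0.189 to 0.968 for Ezh1. The count of all genes called, 0, ranged over 0 to 480 with a library left out, in fits where the lone library of a group is assumed to vary like the other group. The count at an unadjusted p under 0.05 then ranged over 656 to 2966. Since no replicate numbers are given for the columns, both pairings were fitted as a replicate block. With libraries of like Xist level paired 334 genes were called, and Ezh2 was at -0.76 (limma adjusted p = 0.111), while with the deeper libraries paired 0 were called. Library differences correlated at 0.24 across 10371 genes in the pairing by Xist. The value for the other pairing, -0.24, is the same number with its sign changed and not a separate measurement. No label pairs the libraries. Depth limits Ring1 most, which had 147 to 385 reads per library.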

Other observations

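PhoRC and the deubiquitinases that remove the PRC1 mark are not among the 10 genes but act on the same chromatin. The list for PhoRC held 5 genes: Yy1, Sfmbt1 and Sfmbt2, and the related L3mbtl1 and L3mbtl3, which are not PhoRC subunits. Yy1, Sfmbt1 and Sfmbt2 had log2 fold changes of -0.18, -0.6 and 0.46. Of the 5 listed genes 4 had negative values, and the median, -0.55, was that of L3mbtl3. Without overlap between the groups 3 of the 5 were lower and 1 higher, beside 23.6% lower and 25.2% higher of all genes tested. By limma-voom 0 had an unadjusted p under 0.05. Of 9 H2AK119 deubiquitinase genes and their partners 7 were negative (median -0.21), and 5 (55.6%) did not overlap, beside 48.9% of all genes tested. Among those 5, 4 were lower and 1 higher, beside 23.6% lower and 25.2% higher of all genes tested. By limma-voom 0 of the 9 had an unadjusted p under 0.05.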
